A study of Mus musculus with 35 samples.

Results

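Basement membrane collagens and laminins are described here by 9 genes of the mouse trachea array: the collagen IV chains Col4a1 and Col4a2, the laminin chains Lama5, Lamb1 and Lamc1, the linkers Nid1 and Hspg2, and the basement membrane zone collagens Col15a1 and Col18a1. They are named genes of this matrix, each with at least 1 probe set annotated to it alone, and they were picked with earlier results of these data known. They were 9 of the 12393 genes on the array that have such a probe set. They carried 17 probe sets, of which 16 reached the minimum level for testing (log2 intensity 5 or more on 5 or more of the 35 arrays). The second Lamc1 probe set did not, at 2.44 to 3.60 on all arrays. Each gene is given by its brightest probe set on average, and all 9 genes were tested this way.

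A basement membrane is a thin sheet of matrix under epithelium and endothelium and around muscle, fat and nerve cells. Laminins, each built of an alpha, a beta and a gamma chain, assemble at the cell surface, and collagen IV forms a second, covalently crosslinked network that gives the sheet its strength. Nidogen and perlecan tie both networks together. In airways the sheet carries the epithelium, and vessels of the wall have their own.

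The arrays measured RNA of tracheal tissue in 7 groups of 5. The native group was trachea that was never transplanted. Isografts were tracheas placed in MHC-compatible recipients, and allografts tracheas placed in MHC-incompatible ones, each taken 4, 14 or 25 days later. The series' title places the graft heterotopically, that is, away from the airway. Strains, ages, drugs and the origin of the cells in a graft, donor or recipient, are not given in the labels used here. Nor do these say that the 5 arrays of a group came from separate animals, so p-values measure the spread between arrays.

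Values are log2 intensities as deposited, so a difference of 1 is a factor of 2 in intensity. Levels of different genes are not compared, because probe sets differ in brightness. "Called" means an adjusted p under 0.05 by limma, with Benjamini-Hochberg adjustment over all 13678 tested probe sets. SE is the standard error of a difference, SD the spread over the 5 arrays of a group. The shares of all 8306 tested genes called in a comparison are given as its background.

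Medians of the 35 arrays lay between 5.07 and 5.30. Native array 5 and isograft day 25 array 5 stood apart, with a median correlation of 0.894 and 0.854 to the other arrays of their group, against 0.901 or more for the rest. Both were also the highest of their group in a list of skin keratinocyte genes (10.38 and 9.51, against 3.60 to 3.79 and 3.99 to 4.25 in their group). That list, of whose 11 genes 3 were tested, was also high on some arrays of other groups, up to 8.11 in day 4 isografts, 8.58 in day 14 isografts and 8.83 in day 4 allografts. Results that rest on these arrays are given with and without them where both were computed. Tracheal markers were present in native tissue, where 14 epithelial genes averaged 9.26 and 10 cartilage genes averaged 9.11 in log2 intensity.

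Promoter sequences were matched from RefSeq (mouse build GRCm38.p6), as windows from 250 bases before to 50 after a start site. Such windows were found for 8 of the 9 genes. Lamc1 had none in the table. The pair Col4a1 and Col4a2 is shown first because both genes start from the same stretch of chromosome 8 in opposite directions. The start sites of the windows used lie 21 bases apart. The annotated Col4a1 gene reaches beyond the start site of its window (11312826), to 11312889. Their windows, chr8:11312777-11313076 on the minus strand for Col4a1 and chr8:11312555-11312854 on the plus strand for Col4a2, share 78 bases, printed in capitals, which read as reverse complements of each other.
Col4a1: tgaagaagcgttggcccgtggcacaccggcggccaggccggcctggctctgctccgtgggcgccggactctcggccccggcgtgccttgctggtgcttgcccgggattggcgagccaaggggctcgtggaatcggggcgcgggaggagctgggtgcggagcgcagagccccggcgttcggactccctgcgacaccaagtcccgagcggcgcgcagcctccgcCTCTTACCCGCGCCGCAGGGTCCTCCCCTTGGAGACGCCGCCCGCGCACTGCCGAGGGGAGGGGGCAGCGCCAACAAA
Col4a2: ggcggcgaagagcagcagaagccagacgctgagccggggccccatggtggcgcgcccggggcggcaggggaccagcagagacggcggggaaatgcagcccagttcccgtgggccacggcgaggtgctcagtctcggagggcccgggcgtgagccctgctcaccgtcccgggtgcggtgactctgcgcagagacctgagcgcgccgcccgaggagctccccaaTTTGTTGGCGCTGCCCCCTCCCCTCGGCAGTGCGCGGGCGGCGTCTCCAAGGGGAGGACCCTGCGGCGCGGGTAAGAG
The windows of Lamb1 (chr12:31265043-31265342, plus strand) and Lama5 (chr2:180225810-180226109, minus strand) are shown because these were the members that differed between allografts and isografts. Here too the annotated genes reach beyond the start sites of the windows, to 31265146 for Lamb1 and 180225904 for Lama5. Capitals mark GGGCGG on either strand, the core of a GC box. Both marked Lamb1 matches and the last Lama5 match lie inside the annotated genes.
Lamb1: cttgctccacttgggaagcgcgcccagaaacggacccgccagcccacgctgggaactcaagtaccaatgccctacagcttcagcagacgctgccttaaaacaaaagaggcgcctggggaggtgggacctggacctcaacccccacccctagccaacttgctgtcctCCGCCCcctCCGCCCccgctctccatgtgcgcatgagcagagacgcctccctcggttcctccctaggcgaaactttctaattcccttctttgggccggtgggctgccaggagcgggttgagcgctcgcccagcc
Lama5: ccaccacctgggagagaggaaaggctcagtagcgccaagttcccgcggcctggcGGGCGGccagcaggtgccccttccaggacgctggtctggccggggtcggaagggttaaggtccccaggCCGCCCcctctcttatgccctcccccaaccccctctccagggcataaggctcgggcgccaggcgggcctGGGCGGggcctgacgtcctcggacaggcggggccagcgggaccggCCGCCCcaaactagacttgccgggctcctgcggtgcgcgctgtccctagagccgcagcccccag

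All 8 genes were searched on both strands for 4 short motifs, and no matches of different motifs overlapped. They have 9 windows, since Col18a1 has 2. GGGCGG was found in 7 of the 9 windows, against 35.7% of all 32851 windows in the table. GGGCGG occurred 4 times in the Lama5 window and 2 times in the Lamb1 window, and not in that of Col15a1 nor in 1 of those of Col18a1. The Col4a1 match and 1 of the Col4a2 matches are the same bases of the shared stretch, counted in both windows. CCAAT was found in 5 of the 9, against 37.4% of all windows. Neither TATAAA (13.6% of all windows) nor TGANTCA (7.81%) was found in any. The Col4a1 and Col4a2 windows had 74.0% and 73.7% G or C, against a median of 52.7% over all windows. The other member windows ran from 52.3% (Col15a1) to 72.7% (Lama5). The windows of the background were not matched for G or C, so these shares are not read as enrichment. These are matches of letters and no measure of factor binding.

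**Figure D1:**
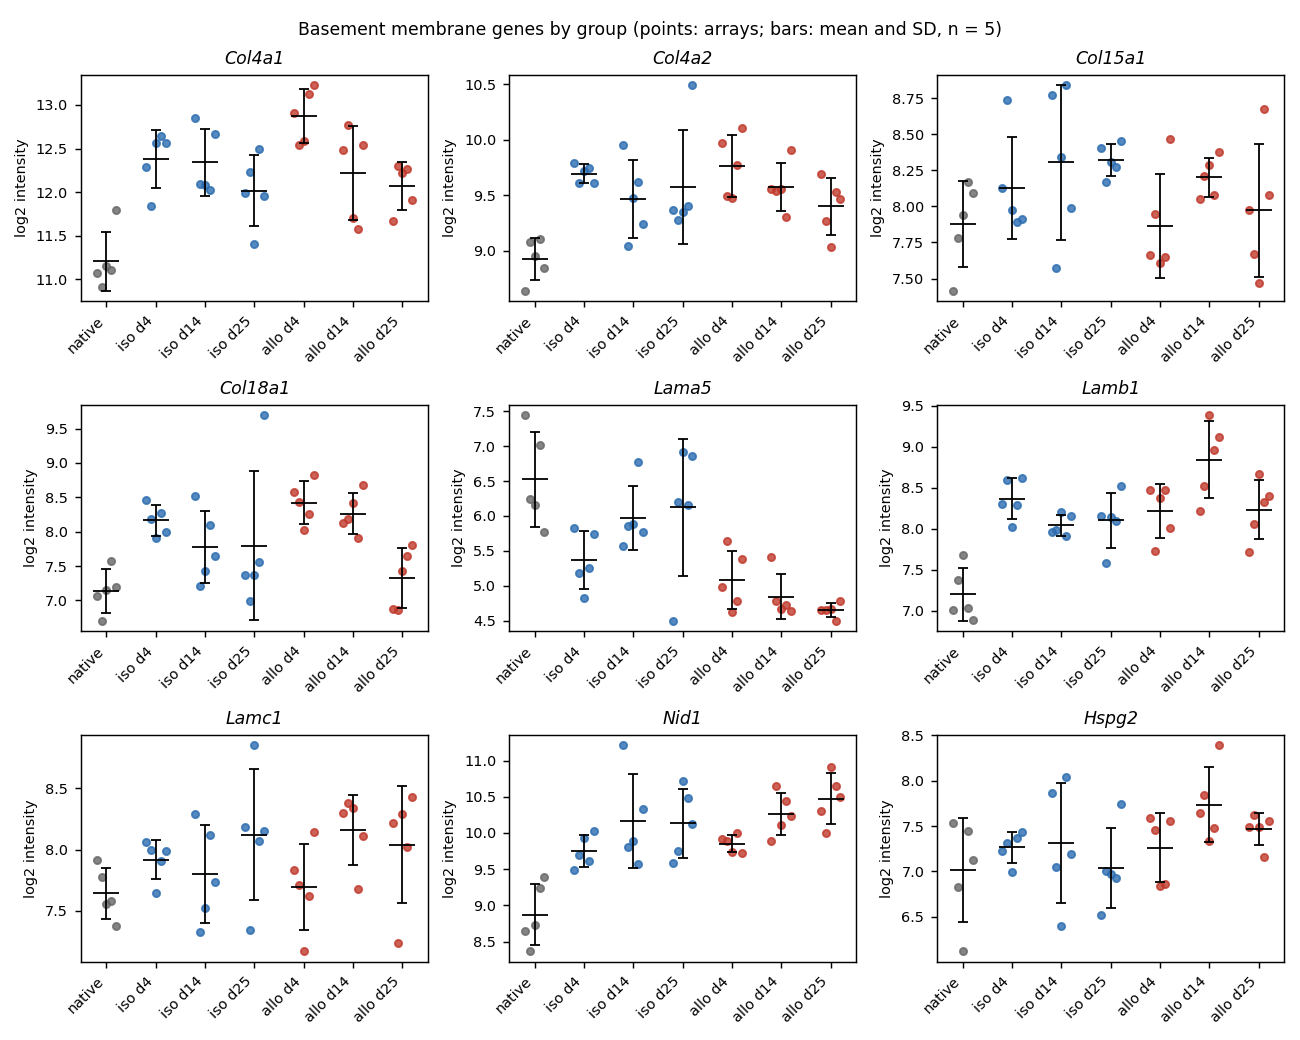
Log2 intensity of the 9 genes on each of the 35 arrays, 1 panel per gene and each panel with its own axis range. Points are arrays and bars are means of the 5 arrays of a group. Col4a1, Lamb1 and Nid1 lie higher in all 6 graft groups than in native trachea, and Lama5 lies lowest in the day 14 and day 25 allografts.

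The first question is how grafts differed from native trachea. Col4a1, Lamb1 and Nid1 were called higher in all 6 graft groups, Col4a2 in 5 (not in day 25 allografts) and Col18a1 in 3 (both day 4 groups and day 14 allografts). Lama5 was lower in day 4 grafts of both kinds and in allografts at all 3 days. Lamc1 and Col15a1 were called in none of the 6 comparisons with native. All 6 share the native arrays, so their likeness to each other is not counted as a result.

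Col4a1 encodes the alpha1 chain of collagen IV, which with alpha2 makes the network found in nearly all basement membranes. Its native arrays read 11.07, 10.91, 11.15, 11.10 and 11.79. The day 4 isografts read 12.29, 11.84, 12.57, 12.64 and 12.56, and the day 4 allografts read 12.91, 12.54, 12.58, 13.13 and 13.23. All 10 day 4 arrays lay above the highest native array, the one that stands apart. Col4a1 rose 2.26-fold in day 4 isografts (1.17, SE 0.24, adjusted p = 0.000187) and 3.19-fold in day 4 allografts (1.67, SE 0.24, adjusted p = 1.1e-06). It was still called higher at day 14, by 1.14 in isografts and 1.01 in allografts, and at day 25, by 0.81 and 0.87. Day 14 isografts (12.02 to 12.85) still cleared the native group, while day 14 allografts (11.58 to 12.78) and the day 25 grafts of both kinds (11.40 to 12.49 and 11.67 to 12.30) overlapped it. That overlap was with native array 5 (11.79) alone, since the other native arrays reached only 11.15. The day 25 isograft call was lost without array 4 of that group (0.69, adjusted p = 0.0597) and with the mean of both Col4a1 probe sets (0.53, adjusted p = 0.0739). The other Col4a1 probe set was called higher at day 4 (0.94 in isografts, 0.89 in allografts) and read 0.25 to 0.60 above native later, not called.

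Col4a2 encodes the partner chain. Native arrays read 8.64, 9.08, 8.95, 9.10 and 8.85. Day 4 isografts read 9.79, 9.61, 9.72, 9.74 and 9.61, and day 4 allografts 9.97, 9.49, 9.48, 9.77 and 10.11. Again no graft array of day 4 overlapped the native group. Col4a2 rose by 0.77 (SE 0.19, adjusted p = 0.00176) in day 4 isografts and by 0.84 (SE 0.19) in day 4 allografts. Later differences were 0.54 and 0.65 in isografts (adjusted p = 0.0334 and 0.0198) and 0.65 in day 14 allografts, all called, and 0.48 in day 25 allografts (adjusted p = 0.0529), not called. That last difference was called under 7 of 12 alternatives (adjusted p = 0.0212 to 0.0599 over the 12). The day 25 isograft value rested on array 5 of that group, at 10.49 against 9.27 to 9.40 on the others: without it the difference was 0.42 (adjusted p = 0.0783). The day 14 isograft call was lost when any of 5 arrays was left out, among them isograft array 1 (0.42, adjusted p = 0.114).

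The chains varied together only in part. Over the 35 arrays Col4a1 and Col4a2 correlated at r = 0.59, and over the 7 group means at r = 0.92. The single closest member pair over arrays was Col4a2 and Col18a1, at r = 0.83. Arrays share tissue composition and normalization, so these are descriptions with no test. For the pair Col4a2 and Col18a1, isograft day 25 array 5 read highest of all 35 arrays in both genes. The r without that array was not computed.

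Col18a1 encodes collagen XVIII, a heparan sulfate proteoglycan of basement membranes whose C-terminal piece is endostatin. Native arrays read 7.07, 6.70, 7.15, 7.58 and 7.19. Day 4 isografts read 8.46, 8.18, 7.90, 8.28 and 8.0, and day 4 allografts 8.58, 8.44, 8.03, 8.25 and 8.83, all above the highest native array. Col18a1 rose by 1.02 (SE 0.32, adjusted p = 0.0109) in day 4 isografts, by 1.29 (SE 0.32) in day 4 allografts and by 1.12 in day 14 allografts. In isografts it read 0.64 above native at day 14 and 0.66 at day 25, neither called. At day 25 array 5 of the isografts read 9.70 and the others 6.99 to 7.55, and without it the difference was 0.18. Day 25 allografts lay within reach of native, at 6.86 to 7.80 (0.18 above, SE 0.32). The other Col18a1 probe set followed closely (r = 0.92 over 35 arrays) but was called higher in 5 of the 6 comparisons, all but day 25 allografts. Its day 25 isografts averaged 7.70, with a median of 7.26 and a highest array of 9.46. For this probe set neither the day 25 isograft call nor r was computed without array 5.

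Col15a1 encodes collagen XV, a relative of collagen XVIII that anchors basement membrane to the fibrils outside it, best known around muscle and capillaries. It ran from 7.41 to 8.17 on native arrays, from 7.57 to 8.84 on isografts and from 7.47 to 8.68 on allografts. Of the 6 graft groups only day 25 isografts, at 8.17 to 8.46, did not overlap the native arrays. Differences from native were between -0.01 (day 4 allografts) and 0.44 (day 25 isografts), each with SE 0.22.

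Lamb1 encodes the laminin beta1 chain of the broadly distributed laminins. Native arrays read 7.01, 7.38, 7.68, 7.03 and 6.89. Day 4 isografts read 8.31, 8.59, 8.02, 8.29 and 8.62, day 14 isografts 7.96, 7.99, 8.21, 7.91 and 8.15, and day 25 isografts 8.16, 7.59, 8.15, 8.10 and 8.52. Only 1 of these 15 arrays, at day 25, lay below the highest native value. Lamb1 rose by 1.17 (SE 0.21, adjusted p = 4.47e-05), 0.85 and 0.90 in isografts at day 4, 14 and 25. Allograft arrays read 8.47, 7.73, 8.37, 8.48 and 8.01 at day 4, then 8.22, 8.52, 9.39, 8.96 and 9.12 at day 14, then 7.71, 8.06, 8.67, 8.33 and 8.40 at day 25. All 15 lay above the native group. The differences from native were 1.01, 1.64 (3.13-fold, adjusted p = 1.31e-07) and 1.04. With the mean over its 3 probe sets the isograft calls at day 14 and day 25 were lost (0.34, adjusted p = 0.286, and 0.50, adjusted p = 0.14).

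Lamc1 encodes the gamma1 chain, shared by most laminins and thus the usual partner of both other chains. It ran from 7.38 to 7.92 in native trachea, 7.33 to 8.85 in isografts and 7.17 to 8.43 in allografts. The difference from native was between 0.05 (day 4 allografts) and 0.52 (day 14 allografts, adjusted p = 0.0664), with SE 0.23. The latter was called when arrays were centred on their median (0.65, adjusted p = 0.0148).

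Lama5 encodes the alpha5 chain, the main laminin alpha chain of adult epithelial and endothelial basement membranes. Native arrays read 7.45, 6.24, 6.16, 7.01 and 5.77, the widest spread of any group but one for this gene. Isografts read 5.83, 5.19, 4.83, 5.26 and 5.74 at day 4, 5.58, 5.85, 5.89, 6.77 and 5.77 at day 14, and 4.49, 6.20, 6.91, 6.16 and 6.86 at day 25. Allografts read 4.99, 5.64, 4.63, 4.78 and 5.38 at day 4, 5.41, 4.78, 4.67, 4.72 and 4.64 at day 14, and 4.65, 4.65, 4.67, 4.50 and 4.78 at day 25. Every allograft array lay below every native array, whereas the day 14 and day 25 isografts overlapped the native group. Lama5 fell by 1.16 (SE 0.33, adjusted p = 0.0057) in day 4 isografts, and by 1.44, 1.68 and 1.88 in allografts at day 4, 14 and 25 (log2 scale). At day 14 and day 25 isografts read 0.56 and 0.40 below native, not called. The second Lama5 probe set, also dim, read 0.27 to 0.42 below native in allografts and was not called against native. In isografts that probe set averaged 4.97, 5.47 and 5.58 at day 4, 14 and 25, against 5.18 in native trachea. At day 14 and day 25 it thus read above native in isografts, where the main probe set read below. Lama5 reached a log2 intensity of 5 on 5 of 5 native and 13 of 15 isograft arrays but on 3 of 15 allograft arrays, so it entered the test through the groups where it is high, and no fold is given for it.

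Nid1 encodes nidogen 1, which binds the laminin gamma1 chain and collagen IV. Native arrays read 8.64, 8.37, 8.74, 9.24 and 9.39. Day 4 isografts read 9.48, 9.70, 9.94, 9.62 and 10.03, and day 25 allografts 10.30, 10.00, 10.92, 10.66 and 10.50. None of the 30 graft arrays lay as low as the highest native array; the lowest of them was at 9.48. Nid1 was called higher in all 6 graft groups, by 0.88, 1.29 and 1.26 in isografts and 0.98, 1.39 and 1.60 in allografts at day 4, 14 and 25 (SE 0.25). The last was 3.03-fold (adjusted p = 3.94e-06). These values are of the main probe set. On the dimmer second one, native arrays ran from 4.50 to 7.62 and overlapped every graft group. It averaged 5.62 in native trachea, 6.60, 6.61 and 6.56 in isografts and 6.88, 7.20 and 6.99 in allografts. In isografts it was not called against native at any day. With the mean of both probe sets the day 4 isograft difference was 0.93 (adjusted p = 0.0515).

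Hspg2 encodes perlecan, the large heparan sulfate proteoglycan that binds growth factors in the sheet. It ran from 6.12 to 7.53 in native trachea, a range that overlapped every graft group. Day 14 allografts, at 7.64, 7.84, 7.33, 7.48 and 8.39, were the only ones called higher (0.72, SE 0.27, adjusted p = 0.0281). The call was lost when any of 4 arrays was left out, 2 allograft and 2 native (0.50 to 0.70, adjusted p = 0.0509 to 0.126). The second Hspg2 probe set was also called only there (0.52, adjusted p = 0.0481).

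By count, 5 of the 9 genes were called higher and 1 lower in day 4 isografts, against 20.2% and 26.1% of all tested genes. In day 4 allografts it was again 5 and 1, against 22% and 25.1%. At day 14, 4 were higher and 0 lower in isografts, against 12.2% and 16.3%, and 6 higher and 1 lower in allografts, against 21.5% and 26.5%. At day 25, 4 were higher and 0 lower in isografts, against 9.9% and 7.34%, and 3 higher and 1 lower in allografts, against 18.4% and 19.7%. In each graft group the share called higher was larger among the members than among all genes. The members were picked with earlier results of these data known, and all 6 comparisons share the native arrays. These shares are therefore a description and no result about basement membrane genes. The median difference of the 9 from native was 0.77, 0.54 and 0.65 in isografts and 0.84, 0.72 and 0.45 in allografts, where that of all tested genes was between -0.10 and 0.01.

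All graft arrays lay above all native arrays for 5 genes in day 4 isografts and 5 in day 4 allografts, against 13.1% and 14.7% of all tested genes. At day 14 that held for 3 genes in isografts (6.96%) and 4 in allografts (14.4%), and at day 25 for 3 (Col4a2, Nid1 and, by a narrow margin, Col15a1; 5.95%) and 2 (Lamb1 and Nid1; 11.9%). Lama5 lay wholly below native in allografts at each day, against 16.1%, 14.9% and 10.7% of all genes.

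**Figure D2:**
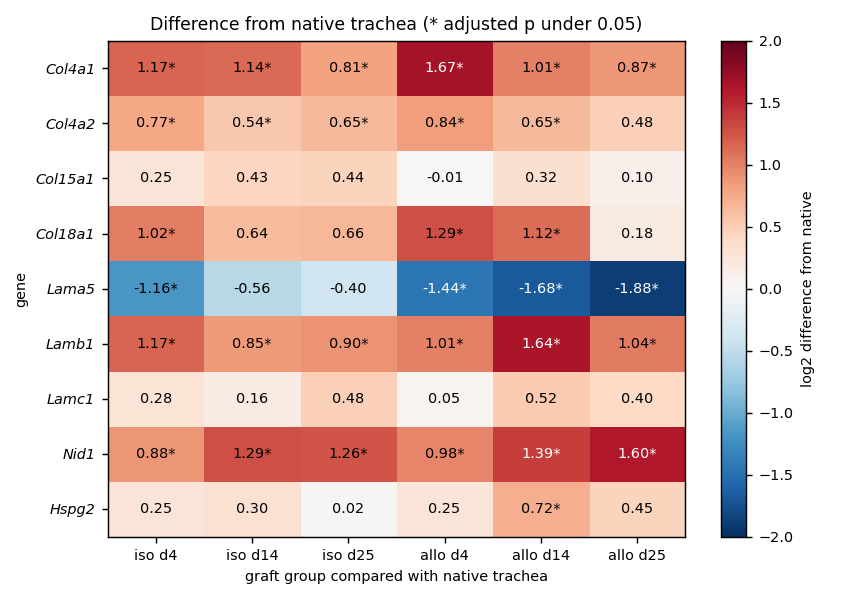
Log2 difference of each graft group from native trachea for the 9 genes (colour and printed value), with asterisks for an adjusted p under 0.05. Col4a1, Lamb1 and Nid1 are called in all 6 columns, and Lama5 is the 1 gene called lower, in day 4 isografts and in allografts of all 3 days.

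The second question is how allografts differed from isografts of the same day in these genes. Strains are not given in the labels used here, so MHC mismatch cannot be told apart from other strain differences. At day 4 none of the 9 was called, against 0.554% of all tested genes, and 1 of the 9 had an unadjusted p under 0.05. That was Col4a1, 0.50 higher in allografts (SE 0.24, 95% interval 0.01 to 0.98, adjusted p = 0.906). The intervals of the other 8 included 0. At day 14 Lamb1 was higher and Lama5 lower, and at day 25 Lama5 alone was lower. The median difference of the 9 was 0.00, 0.11 and -0.08 at the 3 days, beside 0.03, 0.03 and 0.00 for all tested genes.

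At day 14 Lamb1 averaged 8.84 ± 0.47 (SD, n = 5) in allografts and 8.04 ± 0.13 (SD, n = 5) in isografts. The lowest allograft (8.22) lay just above the highest isograft (8.21). The difference was 0.80 (SE 0.21, adjusted p = 0.00603), 1.74-fold, higher in 5 of 5 allografts than in every isograft. A second Lamb1 probe set gave 1.00 (SE 0.21, adjusted p = 0.000772), also without overlap, and the other, dimmer, gave 0.79, not called. At day 4 and day 25 the main probe set differed by -0.15 and 0.13, not called. The difference grew from day 4 to day 14 by 0.95 (SE 0.30, adjusted p = 0.0489), and by 1.43 (SE 0.30, adjusted p = 0.0024) on the second probe set. The first of these rested on the margin of the threshold: leaving out 1 array lost it in 15 of 20 cases, over which it kept a value of 0.82 or more. Centring arrays on a set of reference genes took the day 14 difference to 0.56 (adjusted p = 0.0631).

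Lama5 at day 14 averaged 4.84 ± 0.32 (SD, n = 5) in allografts and 5.97 ± 0.46 (SD, n = 5) in isografts, and the groups did not overlap. It was 1.13 lower in allografts (SE 0.33, adjusted p = 0.015) on the log2 scale. Without isograft array 4, the highest of its group, the gap was -0.93 (adjusted p = 0.062). At day 25 the means were 4.65 ± 0.10 (SD, n = 5) and 6.12 ± 0.98 (SD, n = 5), which differed by -1.47 (SE 0.33, adjusted p = 0.00158). All 5 allografts of that day lay under a log2 intensity of 5, and a filter at log2 7 drops the gene from the test. Isograft array 1, at 4.49, lay below all allografts, and the other 4 lay above them. The second Lama5 probe set was called lower at both days (-0.61, adjusted p = 0.039, and -0.82, adjusted p = 0.00538), with no overlap but by narrow margins. Its highest allografts read 4.917 and 4.889 at day 14 and 25, and its lowest isografts 4.958 and 4.913. All its allografts of both days thus lay under a log2 intensity of 5. It too entered the test through the groups where it is high, so it is no separate support. Against day 4 the gap had widened by -0.84 at day 14 (SE 0.47, adjusted p = 0.364), so a change of the gap with time was not shown.

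By count, 1 of the 9 was called higher and 1 lower at day 14, against 10.8% and 10.5% of all tested genes, and at day 25 0 higher and 1 lower, against 6.83% and 10.3%. Those shares are close to the background. In each of Lamb1 and Lama5 the day 14 groups did not overlap, which held for 8.09% of all genes in the direction of Lamb1 and 8.22% in that of Lama5. The 7 other members had day 14 differences from -0.13 (Col4a1) to 0.48 (Col18a1). At day 25 the other 8 ran from -0.47 (Col18a1) to 0.43 (Hspg2). Without isograft day 25 array 5 the Col18a1 difference was 0.00.

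**Figure D3:**
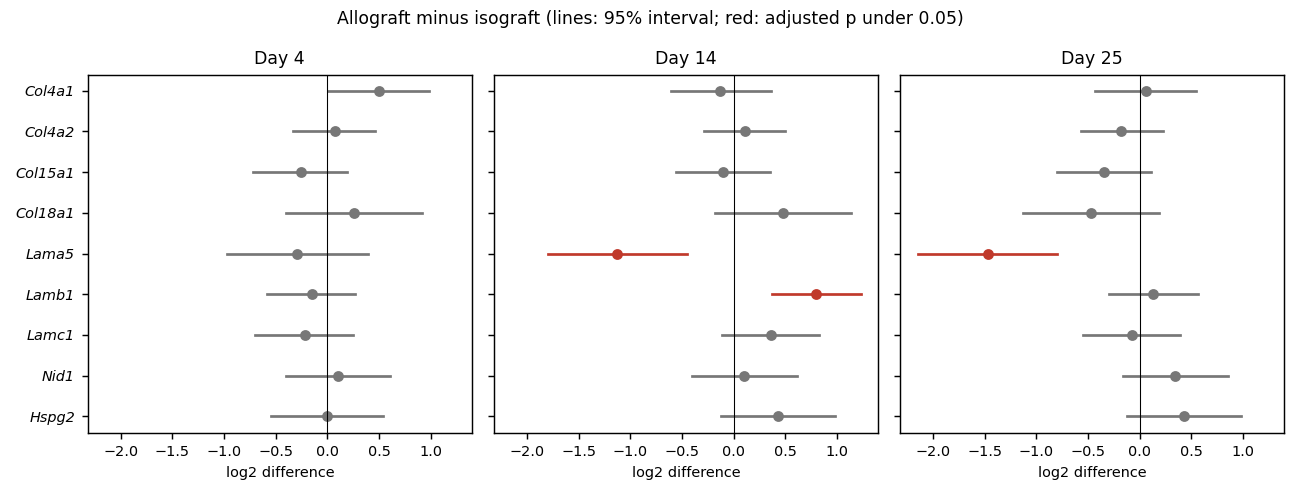
Log2 difference, allograft minus isograft, for the 9 genes at day 4, 14 and 25, with 5 arrays in each group. Points are differences of means, lines their 95% intervals from the fit, and red marks an adjusted p under 0.05: Lama5 (-1.13) and Lamb1 (0.80) at day 14 and Lama5 (-1.47) at day 25.

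Between successive days within a graft type, limma called none of the 9 genes in any of 4 comparisons. From day 4 to day 14 the background was 24% of genes in isografts and 8.92% in allografts, and from day 14 to day 25 it was 0% and 3.49%. At an unadjusted p under 0.05 there were 0 and 0 members in isografts, and 2 and 2 in allografts. In allografts Col4a1 read 0.66 lower at day 14 than at day 4 (adjusted p = 0.0834) and Lamb1 0.63 higher (adjusted p = 0.0608). From day 14 to day 25 Col18a1 read 0.94 lower (adjusted p = 0.136) and Lamb1 0.61 lower (adjusted p = 0.137). The day 25 Col18a1 arrays, 6.87, 6.86, 7.43, 7.65 and 7.80, all lay below the day 14 arrays, 8.13, 8.18, 8.42, 7.91 and 8.68. Such separation downwards held for 2.4% of all tested genes. Without native array 5 and isograft day 25 array 5, Col18a1 still differed by -0.94, with SE 0.23 and adjusted p = 0.0114 in limma. Neither array belongs to the allograft groups compared, and they enter only through the fit over all groups. On the second Lamb1 probe set, isografts fell by 0.88 from day 4 to day 14 (adjusted p = 0.00303). The gap between graft types changed for none of the 9 from day 14 to day 25 (background 1.24%), with 2 at an unadjusted p under 0.05, Col18a1 (-0.96) and Lamb1 (-0.67). Without isograft day 25 array 5 the Col18a1 change was -0.48. From day 4 to day 14 the gap changed for 1 of 9, Lamb1, against 7.63%.

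Cell makeup differed between these groups, and in tissue RNA fewer cells of a type and less RNA per cell cannot be told apart. The level of 14 epithelial markers, all tested, was 8.66 to 9.98 on native arrays, 7.92 to 9.44 over all isografts, 7.31 to 8.84 in day 4 allografts, 4.61 to 6.81 in day 14 allografts and 3.13 to 3.61 in day 25 allografts. Allografts were lower than isografts in 0, 12 and 14 of these 14 genes at day 4, 14 and 25. Over the 35 arrays the epithelial level correlated with Lama5 at r = 0.74, with Lamb1 at -0.44 and with Nid1 at -0.53. Closer to Lama5 were the levels of pericyte and smooth muscle markers (r = 0.80) and, inversely, of leukocyte markers (r = -0.81). The part of none of these in the Lama5 result was tested.

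All 11 fibroblast markers were tested. Their level was 10.23 to 10.75 in native trachea, 10.94 to 12.08 over the isografts and 11.03 to 12.18 over the allografts, with 7 or 8 of the 11 called higher than native in each graft group and 1, Dpt, called lower in both day 4 groups (-0.88 and -0.82). It correlated at r = 0.88 with Nid1, at 0.70 with Lamb1 and at -0.56 with Lama5 over the 35 arrays. Leukocyte markers averaged 6.0 in native trachea, 7.26 to 7.63 in isografts and 7.89 to 8.45 in allografts, where 9 and 8 of 15 were called higher than in isografts at day 14 and 25. Their level correlated at r = 0.79 with Lamb1. Endothelial markers averaged 6.66 in native trachea and 6.75 to 6.97 in grafts, with 0, 0 and 1 of 14 called between graft types at the 3 days. Pericyte and smooth muscle markers averaged 8.72 in native trachea and 7.09 to 8.09 in grafts, with 3 and 7 of 13 lower in allografts than in isografts at day 14 and 25.

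Tissue around the airway varied too. At day 14 allografts were lower than isografts in 6 of 10 cartilage markers (median -2.05) and in 6 of 12 skeletal muscle markers (median -2.95), whose level correlated at r = -0.65 with Lamb1. Neither list had a call between graft types at day 25 (2 of 10 and 1 of 12 at an unadjusted p under 0.05 in limma). Against native at day 4, adipocyte markers were lower in 6 of 6 in isografts and 5 of 6 in allografts, and skeletal muscle markers in 8 and 10 of 12. Schwann cell markers were lower in 4 and 3 of 5. The part of these cell types in the collagen IV, laminin and nidogen results was not tested.

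**Figure D4:**
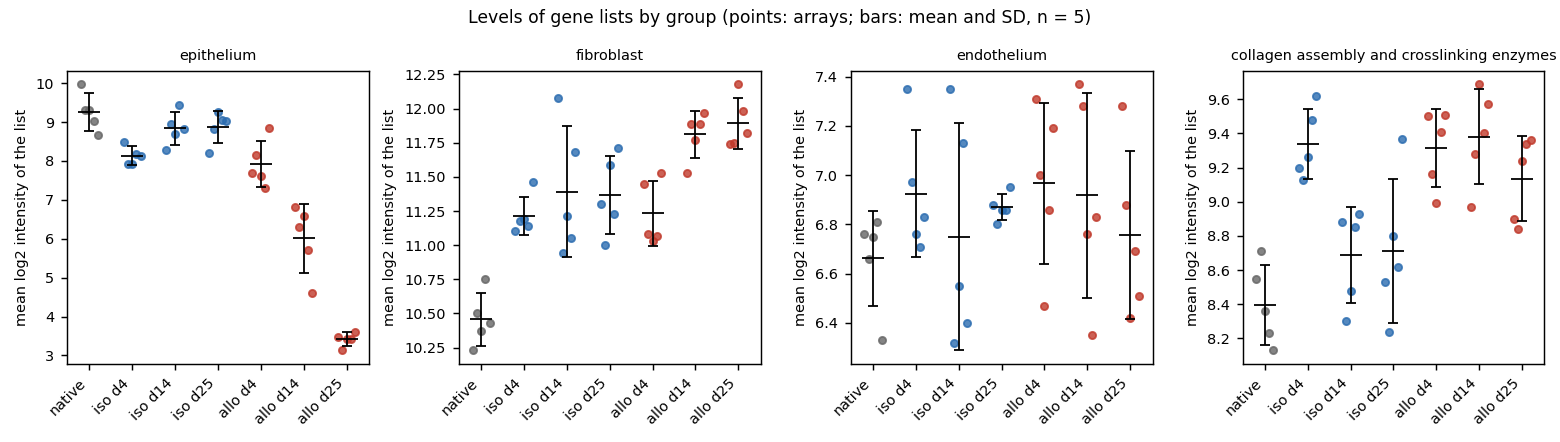
Mean log2 level of the epithelial, fibroblast and endothelial marker lists and of the collagen assembly and crosslinking enzymes on each array, by group. The epithelial level falls to 3.13 to 3.61 in the day 25 allografts, while the fibroblast level is above native in all 6 graft groups.

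Other genes of the same sheet were taken from lists of known function. Of 28 other basement membrane components 17 were tested. At day 14 allografts had 3 of these higher and 3 lower than isografts, and at day 25 3 higher and 6 lower, with none of 17 called by limma at day 4 (0 at an unadjusted p under 0.05). Those higher at day 14 were Fbln2, the linker fibulin 2 (2.37, SE 0.39), Nid2, the second nidogen (1.26, SE 0.28), and Lama4, the laminin alpha4 chain of vessels and fat (1.00, SE 0.28). Those lower were Npnt, the integrin ligand nephronectin (-2.85, SE 0.37), Col4a5, the alpha5 chain of collagen IV (-2.22, SE 0.31), and Agrn, the proteoglycan agrin (-1.13, SE 0.20). Npnt averaged 8.19 in native trachea, 7.59 in day 14 isografts and 4.74 in day 14 allografts. At day 25 the epithelial laminin chain Lama3 was lower in allografts than in isografts (-2.84, SE 0.31). The median over the 17 was -0.23 at day 14 and -0.24 at day 25, beside 0.03 and 0.00 for all genes.

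Collagen IV chains moved in both directions. At day 14 against native, allograft Col4a5 fell by 2.90 (SE 0.31) while Col4a1 and Col4a2 rose by 1.01 and 0.65. Nid2, like Nid1, was called higher than native in all 6 graft groups, by 1.43 to 2.69. Unlike Nid1, which differed between graft types by 0.10 at day 14 and 0.34 at day 25, not called, it was also called higher in allografts at both days (0.86 at day 25, SE 0.28). Whether Nid2 and Nid1 differed in this was not tested. In isografts the 17 components had 5 higher and 9 lower than native at day 4, 2 and 2 at day 14, and 1 and 0 at day 25. In allografts the counts were 3 and 9, 4 and 7, and 4 and 7.

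Of 21 receptors and cell surface partners 19 were tested, and allografts had none called at day 4 (1 at an unadjusted p under 0.05 in limma), 3 higher and 6 lower at day 14, and 2 higher and 7 lower at day 25 than isografts. Bcam, which binds the laminin alpha5 chain, was lower at day 14 (-1.80, SE 0.54) and day 25 (-3.38, SE 0.54). Col17a1, the hemidesmosome collagen of basal epithelial cells, was also lower at both (-1.60 and -3.54, SE 0.51). Itgb1, the beta1 integrin common to most matrix receptors, was 1.06 higher at day 14, and Gpc1, the proteoglycan glypican 1, was 0.91 and 1.1 higher. The syndecan Sdc3 was called higher than native in all 6 graft groups, by 1.01 to 1.97.

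Enzymes that fold, process and crosslink collagens were mostly called higher in grafts than in native trachea at day 4. Of 18 tested, 12 were higher in day 4 isografts and 12 in day 4 allografts, none lower. The largest rise was that of Lox, lysyl oxidase, by 2.53 (SE 0.32) and 2.47. At day 14 the counts were 6 higher and 2 lower in isografts and 12 and 0 in allografts, and at day 25 6 and 0 and 10 and 1. Allografts exceeded isografts in 6 of 18 at day 14, led by the procollagen protease Bmp1 (1.66, SE 0.30) and Loxl3 (1.60, SE 0.28), and in 5 of 18 at day 25, led by Lox (1.42) and Loxl3 (1.12). None was lower at either day, and none of 18 was called by limma at day 4 (1 at an unadjusted p under 0.05).

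Among matrix proteases and inhibitors 18 were tested, and 11, 12 and 9 were higher than native in isografts at the 3 days and 12, 15 and 11 in allografts, with 2, 1, 0 and 2, 1, 0 lower. The inhibitor Timp1 rose by 6.25 (SE 0.50) in day 4 isografts and by 5.92 in day 4 allografts. The macrophage elastase Mmp12 rose by 5.90 in day 14 isografts and by 5.97 in day 25 allografts (SE 0.45). Between graft types limma called none at day 4 (4 at an unadjusted p under 0.05). At day 14, 6 were higher in allografts, led by the gelatinase Mmp9 (3.23, SE 0.61) and the collagenase Mmp13 (2.86, SE 0.56), and 2 lower, the inhibitors Timp4 (-2.29) and Timp3 (-1.13). At day 25, 3 were higher, led by Mmp13 (1.74) and Timp1 (1.62), and 1 lower, the protease Ctsl (-1.10).

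Other genes were ranked by their likeness to each member, as Pearson's r over the 35 arrays. Lama5 was most like Sox21, a transcription factor gene (r = 0.88), and Bcam (r = 0.88), with r = 0.98 and 0.96 over the 7 group means. Lamb1 was most like Adam12, a metalloprotease gene (0.89), and Cyp7b1 (0.86). Nid1 was most like the fibrillar collagen genes Col3a1 (0.84) and Col1a2 (0.82). For the collagen IV chains the closest were Camkk2 and Nudcd2 to Col4a1 (0.81 each) and Col5a3 (0.78) and the endothelial adhesion gene Icam2 (0.77) to Col4a2. Those of Col18a1 were Ap2s1 and Nt5dc2 (0.81 each), and those of Hspg2 were Selenom (0.76) and Rcn3 (0.73). Col15a1 and Lamc1, the members with no call, had closest genes at lower r: Palm (0.70) and Ramp2 (0.67) for Col15a1, and Rgl1 and Il6st (0.73 each) for Lamc1. Among members, Lama5 and Lamb1 ran against each other, at r = -0.58 over arrays and -0.78 over group means.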

How the data were processed

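Tracheal RNA was hybridised to 35 Affymetrix arrays in 7 groups of 5. The authors deposited log2 intensities from GCRMA 1.1.3, per the submitters' processing notes. GCRMA models and subtracts background, normalizes arrays and summarises probes. The settings are not given in the sources used here. No further logarithm or pseudocount was applied, and arrays give no counts, so precision rests on the 5 arrays per group.

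Of 22690 probe sets, 64 controls were set aside. Of the other 22626, 20380 were annotated to 1 gene, 691 to several and 1555 to none. Probe sets with log2 of at least 5 in at least 5 arrays were kept (13678, for 8306 genes). limma 3.58.1 (R 4.3.3) fitted 7 group means (lmFit, eBayes, 28 residual degrees of freedom). Over 15 comparisons each p was adjusted by Benjamini-Hochberg over all kept probe sets. In simulated data of this size, tested on the day 14 comparison of graft types, 51% of 100 probe sets given a log2 change of 1 were called, 94% of 100 given a change of 2, and 9 others.

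The members and the lists of related genes and markers were chosen with earlier results of these data known. All members are named. Of a list, the called genes with the largest rise and fall are named, up to 2 each way between graft types. Lama4 and Agrn, and Col4a5, Nid2 and Sdc3 against native, were named after their values were seen. Genes alike are the 2 with the highest r. Array replicate numbers did not pair arrays: residuals of same-numbered arrays correlated at a median of 0.039 over 105 pairs (-0.42 to 0.47). Alternatives were filters, centring, quantile normalization, array weights, variance model, threshold, averaged probe sets, fewer arrays and a replicate block. Promoters and gene names are RefSeq's.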

Additional observations from a re-analysis of the deposited data

Results flagged for a closer look

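In 7 of the 63 groups of 5 arrays, 1 array lay far from the other 4 of its group for a member gene, by Dixon's test. Chance flags about 1 in 20 such groups. Native array 5 read 11.79 for Col4a1, the others 10.91 to 11.15. Isograft day 25 array 5 read 10.493 for Col4a2, the others 9.27 to 9.40, and 9.698 for Col18a1, the others 6.99 to 7.55. These arrays are the ones that stood apart over all probe sets and had the highest skin marker level of their groups; the part of adhering skin in these values was not tested. Isograft day 4 array 2 read 8.738 for Col15a1, the others 7.89 to 8.13. For Lama5, isograft day 14 array 4 read 6.767, the others 5.58 to 5.89, and allograft day 14 array 1 read 5.411, the others 4.64 to 4.78. Allograft day 25 array 4 read 7.16 for Hspg2, the others 7.49 to 7.62.

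The allograft minus isograft difference of Lamb1 was 0.95 larger at day 14 than at day 4 (SE 0.30, limma adjusted p = 0.0489).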

How the results depend on the processing

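Under alternatives other than leaving out 1 array, 1561 results of single genes kept their direction and side of the threshold, 18 lost a call, 26 gained one and none reversed. Leaving out single arrays gave 1493, 28, 9 and 0. Of the 9 genes, the number called between graft types at day 14 went from 2 to 1 at an adjusted p under 0.01, with reference gene centring and under a stricter filter (log2 of at least 7), and at day 25 from 1 to 0 under that filter, which drops Lama5. For day 25 isografts against native it went from 4 to 2 at an adjusted p under 0.01 and with averaged probe sets. From day 4 to day 14 isografts went from 0 to 2 with reference centring (Lama5 0.96, Nid1 0.77). Allografts went from 0 to 2 with array weights and to 1 with median or reference centring, quantile normalization, the replicate block and the stricter filter. From day 14 to day 25 allografts went from 0 to 1 with array weights and without both arrays that stand apart. The change of the gap between graft types from day 4 to day 14 went from 1 to 0 at an adjusted p under 0.01, with reference centring and with no filter. Where fewer genes or a lower threshold do not show it, the cause was not tested.

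Leaving out 1 array moved the number called between 1 and 2 at day 14 and left 0 at day 4 and 1 at day 25. Against native the ranges were 6 to 6, 3 to 5 and 3 to 5 in isografts and 6 to 6, 6 to 8 and 4 to 5 in allografts. Between days they were 0 to 0 and 0 to 0 in isografts and 0 to 2 and 0 to 1 in allografts, and for the changes of the gap 0 to 1 and 0 to 0. The replicate block (same-numbered arrays correlated at a median of 0.039) changed the number called by more than 1.5 times only in allografts from day 4 to day 14.

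Centring on 11 reference genes moved the median of all probe sets by more than 0.1: at day 14 and 25 between graft types by -0.23 and -0.15, against native by -0.20, 0.16 and 0.12 in isografts and -0.18 in day 4 allografts, from day 4 to day 14 by 0.36 in isografts and 0.11 in allografts, and in the change of the gap by -0.25. The share of calls that were higher went from 54.5% to 28.3%, 42.8% to 25.2%, 47.7% to 29.8%, 42% to 61.5%, 55.7% to 71.1%, 49.5% to 34%, 41.8% to 82.7%, 41.5% to 58.8% and 40% to 18.4% in that order. Median centring moved it by 0.14, 0.17 and 0.13 in day 4 and day 14 isografts and day 14 allografts against native, and by -0.13 between the later isografts. The 5 arrays per group leave changes under log2 1 often uncalled.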
